A study of Mus musculus with 48 samples.

Results

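The genes described here are 10 transcripts that mark reactive, disease-associated microglia, namely *Spp1*, *Gpnmb*, *Itgax*, *Cst7*, *Clec7a*, *Cd68*, *Cd63*, *Lgals3*, *Axl* and *Csf1*. They were taken as a fixed list of names, matched by Ensembl identifier to 1 row each of the 46983 genes in the count tables, and all 10 passed the filter of over 10 counts in the whole study, as did 19970 genes in all. The 48 bulk libraries, in 11 groups, came from brains of male C57Black/6 mice aged 3 months, with no transgene or other treatment in any group. In the middle cerebral artery occlusion (MCAO) groups the artery was permanently closed by coagulation and cutting, and tissue was taken after 3 h, 12 h, 24 h, 3 days or 7 days. There were 5 MCAO libraries at each time except 24 h, which had 4. Shams were operated on but kept the artery intact (4 libraries at each of the 5 times), and the control group was intact cortical tissue (4 libraries). Per the supplementary methods, the tissue was the injured cortical region with both affected and unaffected parts. The main text of the study instead speaks of nearly the whole hemisphere on the lesion side. By either account each MCAO library is a mixture of lesion and surrounding brain. The methods describe several mice per condition, while the labels do not tie each library to a mouse, so that p-values measure only the spread between these libraries.

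Microglia are the resident phagocytes of the brain. Around amyloid, dying neurons, demyelinated fibers and lesions they leave the resting state and take up a reactive program, often called disease-associated, that is driven in large part by the lipid-sensing receptor Trem2 with its adaptor Tyrobp and ApoE as ligand. The genes of the program serve phagocytosis, lysosomal digestion and lipid handling, and most of them are shared with macrophages that enter from blood. None of the 10 genes therefore names a cell type on its own, and in bulk tissue more cells of a type and more RNA per cell cannot be told apart.

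Each library held between 1522668 and 2826735 counts on genes, with a median of 1935855, and no library repeated another. Levels are given as CPM, which are counts on genes divided by the library size after TMM scaling and multiplied up to a common total, and at this depth 1 count is worth about as much as the lowest values printed for *Itgax*, *Cst7* and *Clec7a*. A pair of libraries stood apart in these genes. MCAO replicate A of day 3 was the lowest of its 5 libraries for 10 of the 10 genes, and MCAO replicate C of day 7 was the highest of its 5 for 10 of 10. Both were kept, and results on those days are also given without them, a choice made after their values had been seen. Pan-myeloid transcripts were present in every group, with a summed level of 12 genes between 285 and 499 CPM in the control and sham libraries and between 1105 and 5009 CPM in the MCAO libraries of day 7.

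In the mouse genome (GRCm38) the 10 genes lie on 8 chromosomes. *Spp1* is on the plus strand of chr5:104435118-104441050, *Csf1* on the minus strand of chr3:107741048-107760469 and *Lgals3* on the plus strand of chr14:47367751-47386160. The receptor genes are *Clec7a* (chr6:129461591-129472779, minus strand), *Axl* (chr7:25757273-25788705, minus strand) and *Itgax* (chr7:128129547-128150657, plus strand). The genes of lysosomal and vesicle membranes are *Gpnmb* (chr6:49036546-49070929, plus strand), *Cd68* (chr11:69664213-69666153, minus strand) and *Cd63* (chr10:128900989-128912822, plus strand), and the protease inhibitor gene is *Cst7* (chr2:150570415-150578944, plus strand). Gencode annotates 9 of them as protein coding and *Clec7a* as a polymorphic pseudogene, a class for genes that are intact in some strains only. The only other annotated gene that overlaps any of them is *Gm42793*, on the strand of *Spp1*, with 4 counts in the 48 libraries against 8084 for *Spp1*.

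Since most of the 10 genes moved together, their promoters (RefSeq, GRCm38.p6, 250 bases before to 50 after the start, available for all 10) were searched on both strands for 3 motifs. These were AGGAAG, the core bound by the myeloid factor PU.1, TGANTCA, the site of AP-1 factors, and TCACNTGA. The last is a loose pattern searched for the MITF and TFEB family of lysosomal gene regulators. It allows any base at N, so a match need not be a site of that family. AGGAAG was found in the promoters of 4 of the 10 genes and in 35.4% of all 32851 promoters, TGANTCA in 4 genes and 7.81% of promoters, and TCACNTGA in 2 genes and 4.18%. *Csf1* and *Clec7a* held none of the 3. The matches that lie wholly upstream of the start are shown with their surroundings, 30 bases each on the strand of the gene, with the motif or its reverse complement in capitals. The first group holds the PU.1 core.
Spp1, chr5:104434951-104434980, plus strand: gtgtttccttttCTTCCTtttttttttttt
Spp1, chr5:104434987-104435016, plus strand: caaaaccagaggAGGAAGtgtaggagcagg
Spp1 second start, chr5:104436019-104436048, plus strand: ttttctctttttCTTCCTtgcagaaagtac
Axl, chr7:25788847-25788876, minus strand: caccaaggtctcCTTCCTcctccccagcct
Cd63, chr10:128909273-128909302, plus strand: tctagacaagggCTTCCTcaaagggttttc
Cst7, chr2:150570340-150570369, plus strand: aaacttctttaaAGGAAGtggttgctcttg

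The second group holds the AP-1 site, in *Cd68* at a pair of places that begin 149 and 24 bases before the start, and in *Itgax*.
Cd68, chr11:69666301-69666330, minus strand: taagttccgtgTGAGTCAgctgcctcattc
Cd68, chr11:69666176-69666205, minus strand: gctgaggtgtcTGAGTCAggtttggggtgg
Itgax, chr7:128129483-128129512, plus strand: cccacctcctcTGAGTCAcgctgacaactt

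The last group holds matches to the loose pattern TCACNTGA, in *Lgals3* and *Cst7*. Both lie on the opposite strand and, read there, have C at N in *Lgals3* and T in *Cst7*. Whether MITF or TFEB binds these forms was not tested, and they are not named as sites of that family. The AP-1 sites of *Gpnmb* and *Cst7* reach past the start and are not shown.
Lgals3, chr14:47373625-47373654, plus strand: tgcggaaggctTCAGGTGAaggaattaggg
Cst7, chr2:150570165-150570194, plus strand: aaggacagTCAAGTGActacttttgaaaat

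The matches are descriptions of letters, and no binding was measured. *Spp1*, the gene with the 3 PU.1 cores, and *Clec7a*, with none of the motifs, both rose on days 3 and 7.

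To follow the reactive program through the first week, MCAO was compared with sham at each time. None of the 10 genes passed the test at 3 h, several were higher in every MCAO library at 12 h and 24 h without passing the test, and most rose steeply on days 3 and 7. Calls were made with edgeR's quasi-likelihood test, at a p under 0.01 after Benjamini-Hochberg adjustment over all 19970 genes and a log2 fold change beyond 0.58. On day 3, 7 of the 10 genes were called higher, against 3.76% of all genes, and on day 7, 9 of the 10, against 2.07%. At 3 h, 12 h and 24 h edgeR called 0 of the 10, where 0.0901%, 0.346% and 0.0801% of all genes were called higher. At an unadjusted p under 0.05 in either direction the number was 1, 6 and 5 of 10, beside 8.45%, 14.6% and 8.8% of all genes. DESeq2 called 0, 1 and 0 of the 10 higher, and 0.25%, 0.706% and 0.17% of all genes. The median log2 fold change of the 10 genes was 0.50 at 3 h, 2.00 at 12 h, 1.81 at 24 h, 4.59 on day 3 and 4.99 on day 7, beside medians of all genes between 0.00 and 0.06. With the genes whose shams were all at 0 set to their lower bound, the medians of 12 h and day 3 were 1.27 and 4.07.

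**Figure D1:**
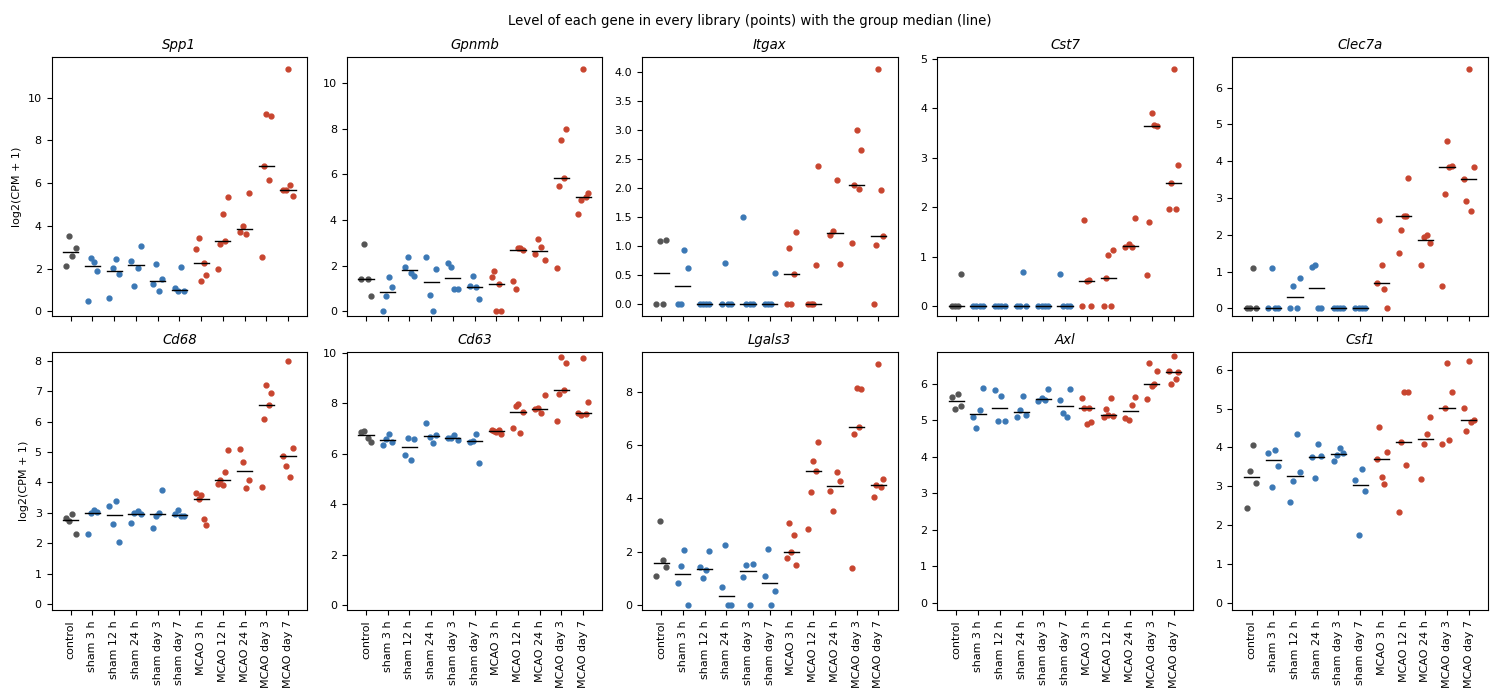
Level of each of the 10 genes in every library, as log2(CPM + 1) on the vertical axis, with 1 point per library, a line at the group median and the 11 groups along the horizontal axis (control grey, sham blue, MCAO red). The MCAO points of days 3 and 7 lie above the shams for most genes, with 1 low point on day 3 (replicate A) and 1 high point on day 7 (replicate C, 2585 CPM for *Spp1*).

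Groups that did not overlap were also counted. All MCAO libraries lay above all shams of their time in 0 of the 10 genes at 3 h (2.27% of all genes), 4 at 12 h (2.03%), 6 at 24 h (3.73%), 6 on day 3 (4.33%) and 9 on day 7 (5.38%). The 4 genes of 12 h were *Lgals3*, *Clec7a*, *Cd63* and *Cd68*. At 24 h *Spp1* and *Cst7* joined them. In the shams, edgeR called 0 of the 10 genes higher or lower than in control at 3 h, 12 h, 24 h, day 3 and day 7, where 0%, 0.00501%, 0%, 0% and 0% of all genes were called higher, and DESeq2 called 0 of the 10. At an unadjusted p under 0.05 there were 0 of 10 at each time, beside 3.69%, 5.43%, 4.31%, 3.66% and 8.03% of all genes.

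The secreted proteins come first. *Spp1* encodes osteopontin, a phosphoprotein that binds integrins and CD44 and is a leading transcript of phagocytic microglia. In the 4 control libraries it stood at 3.35 to 10.7 CPM and in the 20 shams at 0.395 to 7.34 CPM, with control replicate B above every sham. In the MCAO libraries A to E of day 3 it stood at 4.8, 110.0, 592, 69.8 and 561 CPM, against 0.934 to 3.69 CPM in the shams of that day. Replicate A lay close to the shams and the others were far above them, in a low pair (B and D) and a high pair (C and E). On day 7 the 5 libraries stood at 49.6, 49.4, 2585, 60.0 and 40.7 CPM, against 0.912 to 3.27 CPM in sham, so that 4 libraries agreed closely and replicate C was far above them. *Spp1* rose by a log2 fold change of 7.05 ± 1.21 (SE) on day 3 (adjusted p = 6.64e-05, edgeR) and 8.46 ± 1.29 on day 7 (adjusted p = 2.85e-05). The earlier values were 2.48 ± 1.25 at 12 h (adjusted p = 0.352) and 2.31 ± 1.24 at 24 h (adjusted p = 0.59), with all 4 MCAO libraries of 24 h (11.4 to 45.8 CPM) above the shams (1.26 to 7.34 CPM).

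*Lgals3* encodes galectin-3, a sugar-binding lectin that acts outside the cell and on damaged lysosomes. The MCAO libraries A to E of 12 h stood at 6.30, 18.0, 41.2, 31.8 and 69.1 CPM, against 1.04 to 3.12 CPM in sham, with no overlap. The log2 fold change at 12 h was 4.07 ± 1.06 with an adjusted p of 0.0343 (edgeR), short of the threshold, and DESeq2 called it (adjusted p = 0.00531), as did edgeR with no filter on low counts (adjusted p = 0.000824). At 24 h the MCAO libraries stood at 18.7, 10.7, 30.5 and 24.4 CPM against 0 to 3.79 CPM, and the log2 fold change was 4.27 ± 1.31 (adjusted p = 0.204). On day 3 the libraries A to E stood at 1.60, 85.9, 282, 102 and 277 CPM, with replicate A inside the sham range of 0 to 1.87 CPM and the others above it. On day 7 they stood at 15.6, 21.9, 531, 20.6 and 25.7 CPM, all above the shams (0 to 3.27 CPM). The rise was 6.90 ± 1.09 on day 3 (adjusted p = 1.79e-05) and 6.54 ± 1.11 on day 7 (adjusted p = 0.000124).

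*Csf1* encodes the growth factor that keeps microglia alive and dividing through the receptor Csf1r. It stood at 4.46 to 15.8 CPM in control. Its MCAO libraries of day 7 stood at 31.2, 20.4, 74.4, 24.0 and 25.1 CPM, all above the 2.33 to 9.81 CPM of the shams, and it rose by 2.40 ± 0.51 (adjusted p = 0.0018). On day 3 it stood at 16.0, 31.2, 71.4, 17.1 and 41.9 CPM, again above all shams (11.6 to 14.9 CPM), and the log2 fold change of 1.42 ± 0.46 did not pass (adjusted p = 0.0442). Without the libraries that stand apart the 2 calls changed places, with 1.60 on day 3 (adjusted p = 0.00824) and 1.94 on day 7 (adjusted p = 0.0129). The call of day 7 was also lost without sham replicate B (2.11, adjusted p = 0.0139) or D (2.38, adjusted p = 0.0109).

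Among the receptors, *Clec7a* encodes dectin-1, which senses beta-glucans and signals through Syk. It was sparse outside MCAO, with 0 counts in all 4 shams of day 3 and all 4 of day 7. In the MCAO libraries A to E it stood at 0.534, 7.68, 22.5, 13.2 and 13.7 CPM on day 3 and at 10.4, 6.62, 89.2, 5.28 and 13.2 CPM on day 7. Every library of both days had counts, although replicate A of day 3 had 1. Summed over the group, *Clec7a* was at least 35.7-fold higher after MCAO on day 3 (121 counts) and at least 62.0-fold higher on day 7 (213 counts), taking 3 counts over the 4 shams as the floor, which covers counting error only. Of the 213 counts 150 came from replicate C, without which the bound was 22.5-fold. The fitted changes, which depend on the prior count against shams at 0, passed with adjusted p = 0.000227 on day 3 and 6.97e-05 on day 7. At 12 h all 5 MCAO libraries (1.85 to 10.7 CPM) lay above the shams (0 to 0.779 CPM), and the ratio of the summed counts, 47 against 3, was 14.0 (95% exact interval 4.50 to 70.3, counting error only), with an adjusted p of 0.085. At 3 h the ratio of 14 counts to 2 was 5.46 (1.25 to 49.5), with an adjusted p of 0.706.

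*Itgax* encodes CD11c, an integrin subunit of reactive microglia and dendritic cells, and had the fewest counts of the 10. In the MCAO libraries A to E it stood at 1.07, 3.16, 6.99, 2.93 and 5.29 CPM on day 3 and at 0, 1.02, 15.5, 2.88 and 1.25 CPM on day 7. The shams were at 0 except for replicate A of day 3 (1.81 CPM, 5 counts) and replicate D of day 7 (0.456 CPM, 1 count), so that the groups overlapped on both days. The log2 fold change was 2.79 ± 1.07 on day 3 (adjusted p = 0.1) and 4.47 ± 1.33 on day 7 (adjusted p = 0.0244), and neither passed. The ratio of the summed counts on day 7, 36 against 1, was 31.5 (95% exact interval 5.30 to 1277, counting error only). Replicate C held 26 of the 36, and the ratio was 10.7 (1.53 to 466) without it.

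*Axl* encodes a receptor kinase of the TAM family, which binds phosphatidylserine on dying cells through Gas6. It was well expressed without injury, at 38.2 to 51.4 CPM in control and 26.5 to 58.3 CPM over the shams, and changed least of the 10. On day 7 the MCAO libraries stood at 79.6, 62.6, 108, 68.6 and 78.3 CPM, all above the shams (33.3 to 56.6 CPM), and *Axl* rose by 0.88 ± 0.21 (adjusted p = 0.00549). On day 3 they stood at 47.0, 93.1, 60.4, 62.5 and 80.6 CPM against 45 to 57.2 CPM, with a log2 fold change of 0.49 ± 0.21 (adjusted p = 0.153). At 3 h, 12 h and 24 h the log2 fold change lay between -0.15 and -0.02, and it was 0.10 at 24 h under spike-in scaling. The call of day 7 was lost without MCAO replicate C (0.75, adjusted p = 0.0346) and without sham replicate A, B or C in turn (0.91, 0.81 and 0.78), and the value was 0.75 (adjusted p = 0.025) when the libraries that stand apart were left out.

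Of the membrane proteins of lysosomes and vesicles, *Cd68* is the classical lysosomal marker of phagocytes, and it separated from sham in every MCAO library from 12 h on. Its MCAO libraries stood at 14.5, 16.0, 14.1, 19.4 and 32.2 CPM at 12 h (sham 3.12 to 9.61) and at 33.6, 24.8, 13.1 and 15.9 CPM at 24 h (sham 5.34 to 7.32). On day 3 they stood at 13.3, 66.9, 145, 91.8 and 121 CPM (sham 4.71 to 12.6) and on day 7 at 28.3, 22.4, 254, 17.3 and 34.4 CPM (sham 6.39 to 7.47). Replicate A of day 3 was thus only just above its shams. *Cd68* rose by 3.52 ± 0.55 on day 3 (adjusted p = 1.63e-05) and 3.37 ± 0.57 on day 7 (adjusted p = 0.00012). The earlier values were 1.52 ± 0.58 at 12 h (adjusted p = 0.188) and 1.72 ± 0.61 at 24 h (adjusted p = 0.313).

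*Cd63* encodes a tetraspanin of late endosomes and exosomes that many cell types make, and stood at 87.9 to 118 CPM in control. In the MCAO libraries A to E it stood at 131, 240, 251, 114 and 202 CPM at 12 h, 158, 329, 910, 369 and 768 CPM on day 3 and 196, 184, 898, 189 and 265 CPM on day 7. The shams of those times reached 98.5, 107 and 110 CPM, so the groups did not overlap. *Cd63* rose by 2.36 ± 0.36 on day 3 (adjusted p = 1.14e-05) and 2.04 ± 0.36 on day 7 (adjusted p = 0.00022), while the value of 1.28 ± 0.36 at 12 h did not pass (adjusted p = 0.051) in the same test and did with no filter on low counts (adjusted p = 0.00452).

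*Gpnmb*, a glycoprotein of phagosomes and lysosomes that accumulates in lipid-laden phagocytes, was called on days 3 and 7. At 12 h its MCAO libraries (0.971 to 5.88 CPM) overlapped the shams (1.95 to 4.17 CPM) and at 24 h they stood at 4.67, 7.95, 5.93 and 3.67 CPM with 3 of 4 above the shams. On day 3 they stood at 2.67, 43.8, 182, 55.7 and 250 CPM and on day 7 at 17.9, 28.5, 1549, 31.2 and 35.1 CPM. Only replicate A of day 3 fell within the sham range of its day (0.934 to 3.26 CPM). *Gpnmb* rose by 5.67 ± 1.09 on day 3 (adjusted p = 0.000313) and 8.11 ± 1.21 on day 7 (adjusted p = 2.08e-05). The log2 fold changes at 12 h and 24 h were 0.43 ± 1.37 and 1.53 ± 1.5.

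*Cst7* encodes cystatin F, an inhibitor of the cysteine protease cathepsin C inside lysosomes. Of the 24 control and sham libraries only 3 held a count of it, with 1 each. In the MCAO libraries A to E it stood at 0.534, 2.26, 14.0, 11.7 and 11.5 CPM on day 3 and at 2.88, 4.58, 26.8, 2.88 and 6.26 CPM on day 7. On day 3, with 84 counts after MCAO and 0 in sham, it was at least 24.8-fold higher over the group. On day 7 the ratio of 75 counts to 1 was 65.5 (95% exact interval 11.4 to 2623, counting error only). Replicate C held 45 of the 75, and the ratio was 32.2 (5.35 to 1313) without it. The fitted changes passed, with adjusted p = 0.000224 on day 3 and 0.00136 on day 7, the latter lost without MCAO replicate C alone (adjusted p = 0.0139) or sham replicate D (adjusted p = 0.0114). At 24 h all 4 MCAO libraries held 3 or 4 counts, against 1 count in the 4 shams (adjusted p = 0.508). At 3 h, 7 counts in 3 of the 5 MCAO libraries stood against 0 in sham (adjusted p = 0.545).

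**Figure D2:**
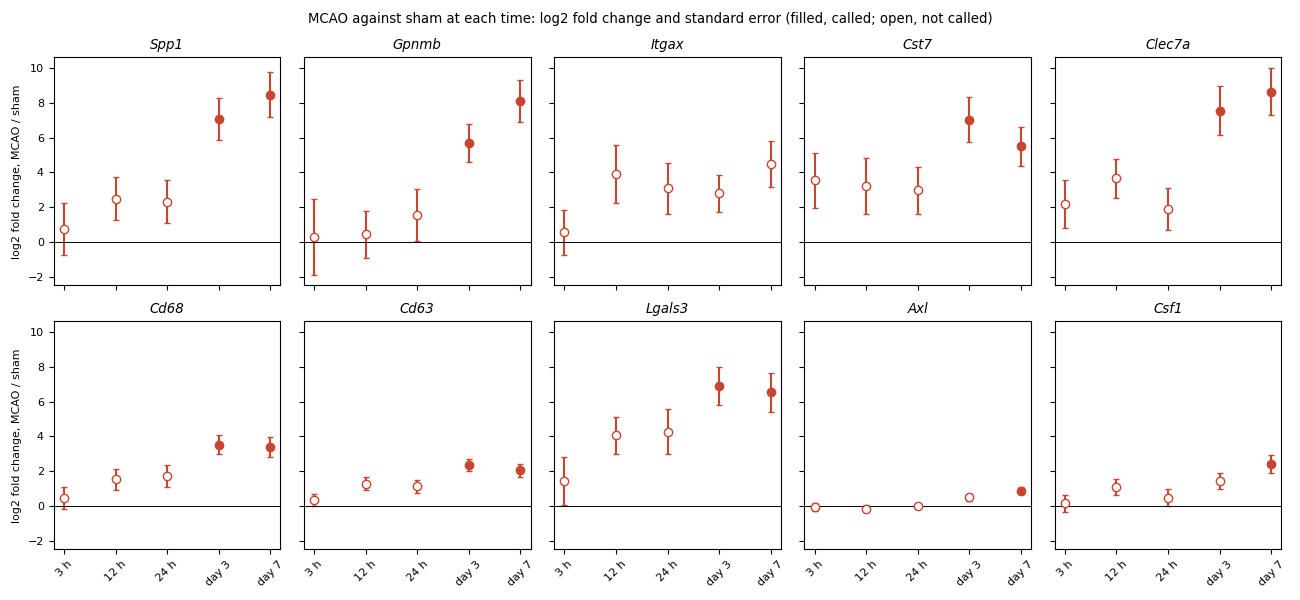
Log2 fold change of MCAO over sham (vertical axis) at the 5 times (horizontal axis) for each gene, with its standard error as the bar (no bar where it could not be estimated). Filled points passed the test. *Axl* stays within 0.88 of zero, while *Clec7a* reaches 8.65 on day 7, a value that rests on shams at 0 and is not a bound.

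The order of days 3 and 7 depended on the pair of libraries. By the median over 5 libraries, day 3 was the highest of the 11 groups for 9 of the 10 genes and day 7 for *Axl*, whereas by the mean day 7 was the highest for 6 genes, *Spp1*, *Gpnmb*, *Itgax*, *Cst7*, *Clec7a* and *Axl*. The median of *Spp1* was 110.0 CPM on day 3 and 49.6 CPM on day 7, and its means were 267 ± 285 (SD, n = 5) and 557 ± 1134 CPM. Without replicate C the day 7 mean of *Spp1* was 49.9 ± 7.88 CPM (n = 4), and without replicate A that of day 3 was 333 ± 282 CPM (n = 4). For *Spp1* the 4 remaining libraries of day 7 varied less than those of day 3, but only after the extreme library had been left out for its values. With all 5 libraries the SD was larger on day 7. Left without both libraries, 8 of the 10 genes were called on day 3 (6.04% of all genes were called higher), with *Csf1* added, and 7 on day 7 (0.987%), with *Axl* and *Csf1* lost. All 10 log2 fold changes were then larger on day 3 (*Spp1* 7.36, *Lgals3* 7.21) and smaller on day 7 (4.99 and 4.0). The direction of this shift was set by the choice of libraries and is not a result. For all 10 genes the libraries left out held the lowest value of day 3 and the highest of day 7.

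**Figure D3:**
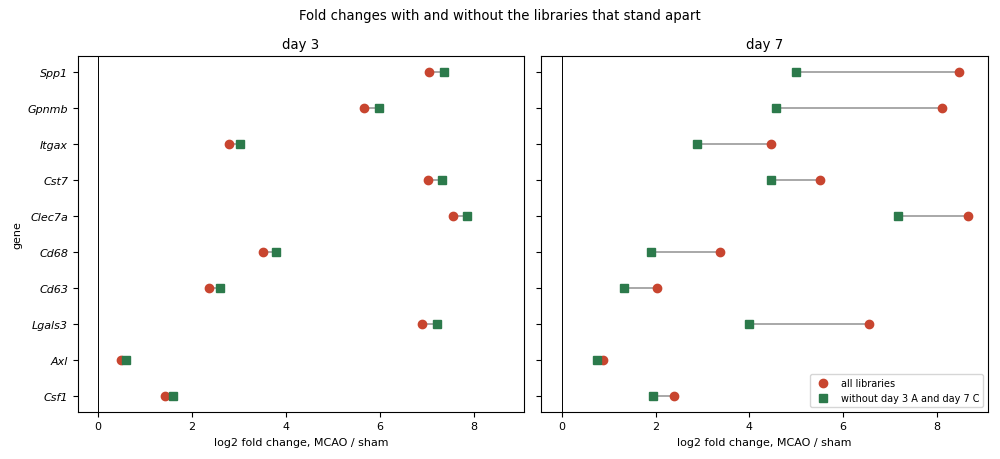
Log2 fold change of MCAO over sham (horizontal axis) of each gene on day 3 and day 7, with all libraries (red circles) and without MCAO replicate A of day 3 and replicate C of day 7 (green squares). On day 7 the value of *Gpnmb* moves from 8.11 to 4.56 and that of *Lgals3* from 6.54 to 4.0, while on day 3 no gene moves by more than 0.31.

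Whether the MCAO effect itself changed between neighboring times was tested as the difference of the log2 fold changes. edgeR called 0 of the 10 genes for 12 h against 3 h (0.01% of all genes were called higher), 24 h against 12 h (0%), day 3 against 24 h (0.01%) and day 7 against day 3 (0%), and DESeq2 called 0 in each. At an unadjusted p under 0.05 there were 0, 0, 4 and 0 of the 10 genes, beside 7.12%, 5.08%, 8.82% and 16.2% of all genes. For day 3 against 24 h the difference was 4.74 ± 1.98 for *Spp1* (adjusted p = 0.493), 1.79 ± 0.84 for *Cd68* (adjusted p = 0.552) and 1.24 ± 0.50 for *Cd63* (adjusted p = 0.473). Without the libraries that stand apart 1 gene was called, *Spp1* with 5.05 ± 1.09 (adjusted p = 0.00805, 0.362% of all genes called higher). For day 7 against day 3 none was called then (0.453% of all genes were called higher and 0.695% lower). The difference was -1.89 ± 0.46 for *Cd68* (adjusted p = 0.0119), -1.27 ± 0.35 for *Cd63* (adjusted p = 0.024) and -3.21 ± 1.28 for *Lgals3* (adjusted p = 0.131), while it was 0.16 for *Axl* and 0.34 for *Csf1*. The libraries left out were picked by these values, as the lowest of day 3 and the highest of day 7. Leaving them out itself raises day 3 and lowers day 7, so the *Spp1* call and the negative differences are not results.

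Against the unoperated control in place of sham, 8 of the 10 genes were called higher on day 3 (2.81% of all genes) and 7 on day 7 (1.09%). *Csf1* passed on day 3, with 1.93 ± 0.49 (adjusted p = 0.00939), and *Axl* and *Csf1* missed on day 7 (adjusted p = 0.0183 for both). The values were lower than against sham for *Spp1* (5.35 ± 1.06 on day 3 and 6.41 ± 1.09 on day 7), whose control libraries stood above the shams of those days except that replicate A, at 3.35 CPM, lay below the highest sham of day 3 (3.69 CPM). When only the MCAO and sham libraries of a day entered the fit, 2 of the 10 genes, *Cst7* and *Csf1*, passed on day 7. The other calls of that day stood at adjusted p between 0.0105 and 0.0191. Over all genes, 143 were then called higher on day 7, against 413 in the main fit. With only the libraries of day 3, *Cst7* missed (adjusted p = 0.0108), and 323 of all genes were called higher, against 750.

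The 10 genes varied together across libraries. Over the 24 MCAO libraries the Pearson r of a gene's log2(CPM + 1) with the mean z-score of the other 9 was 0.98 for *Spp1*, 0.96 for *Gpnmb* and 0.90 to 0.92 for *Cst7*, *Clec7a*, *Cd68*, *Cd63* and *Lgals3*. It was lowest for *Axl* (0.74), *Itgax* (0.78) and *Csf1* (0.79). These points share the 5 times and the size of the response, and without the pair of libraries (22 libraries) the values were 0.68 for *Axl*, 0.69 for *Itgax* and 0.98 for *Spp1*. Of the 13911 genes with a mean of at least 2 CPM, those most like the mean of the 10 were *Fcer1g* (r = 0.961) and *Tyrobp* (0.952), the signaling adaptors of myeloid receptors, *Lyz2* (0.958), the phagocyte lysozyme, *H2-K1* (0.948), a class I antigen-presenting molecule, *Ctsb* (0.947), a lysosomal protease, *C3ar1* (0.946), the receptor for complement C3a, *Ptpn6* (0.944), a phosphatase of hematopoietic cells, and *Lgals1* (0.942), another galectin.

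Of 30 other genes listed for the same reactive program, 29 were tested. Of these, 15 were called higher on day 3 (3.76% of all genes) and 17 on day 7 (2.07%), none lower, with median log2 fold changes of 1.91 and 2.40. At 12 h only *Ccl6*, a chemokine of macrophages, was called (3.78 ± 0.68, adjusted p = 0.00115), and at 3 h and 24 h none. The largest rises of day 3 were *Cd52*, a short leukocyte surface glycoprotein (0.801 to 52.7 CPM in the group means, log2 fold change 5.84 ± 0.76, adjusted p = 6.7e-07), *Lyz2* (5.39 ± 0.91, adjusted p = 4.95e-05), *Plin2*, which coats lipid droplets (5.13 ± 0.84, adjusted p = 2.74e-05), and *Capg*, an actin-capping protein (4.82 ± 0.91, adjusted p = 0.000258). Among the genes called on day 7 they were *Lyz2* (8.59 to 909 CPM, 6.70 ± 0.96, adjusted p = 1.38e-05), *Mmp12*, the macrophage elastase, at 0 in sham and 5.6 CPM after MCAO (adjusted p = 0.00811), *Cd52* (4.27 ± 0.70) and *Plin2* (3.97 ± 0.82). The largest value of the list on day 7, 6.92, belonged to a gene that was not called. The insulin-like growth factor gene *Igf1* stood at 0.65 ± 0.44 on day 3 and was called on day 7 (3.04 ± 0.45), and *Apoe* at 0.51 ± 0.24 and, called, at 1.26 ± 0.25. *Trem2* passed on both days (2.81 ± 0.49 and 2.40 ± 0.47), as did *Tyrobp* (3.59 ± 0.51 and 2.84 ± 0.48). Without the pair of libraries the counts were 19 on day 3 (6.04% of all genes) and 9 on day 7 (0.987%).

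**Figure D4:**
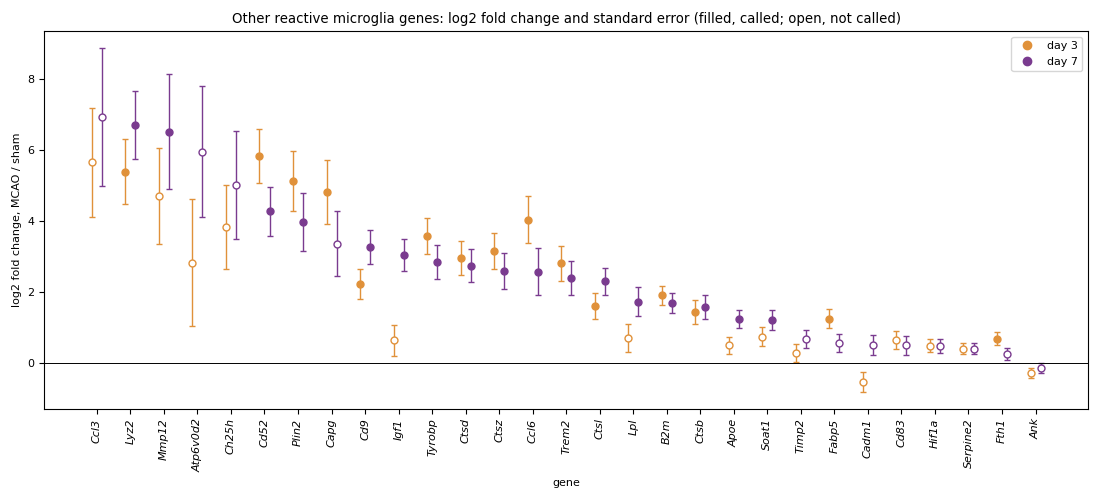
Log2 fold change of MCAO over sham with its standard error (vertical axis) for 29 other genes of the reactive program (horizontal axis), on day 3 (orange) and day 7 (purple), filled where the gene passed the test. Of the 29, 15 pass on day 3 and 17 on day 7, all of them higher.

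The receptors, ligands and regulators that work with the 10 genes were taken as a list of 31, of which 30 were tested and *Cd9* and *Ctsl* stood in both lists. On day 3, 14 were called higher (3.76% of all genes) and on day 7, 8 (2.07%), none lower, with medians of 1.25 and 1.01. *Cd44*, a receptor of osteopontin, was called at 12 h (4.22 to 40.3 CPM, 3.15 ± 0.57, adjusted p = 0.00119), on day 3 (3.64 ± 0.56) and on day 7 (3.45 ± 0.63). *Ctsc*, the protease that cystatin F inhibits, rose by 3.55 ± 0.60 on day 3 and 2.64 ± 0.61 on day 7. *Itgb2*, the partner chain of CD11c, rose by 3.51 ± 0.82 on day 3 and stood at 3.25 ± 0.86 on day 7 (adjusted p = 0.0111), and *Syk*, the kinase downstream of dectin-1, rose by 3.05 ± 0.71 on day 3. The tetraspanins *Cd53* (3.48 ± 0.65) and *Cd9* (3.27 ± 0.48) were among the 4 largest on day 7. *Csf1r* rose by 2.26 ± 0.31 on day 3 and stood at 1.00 ± 0.29 on day 7 (adjusted p = 0.0217). The other receptors of the TAM family did not pass on these days, with 0.09 ± 0.20 and 0.02 ± 0.20 for *Mertk* and -0.14 ± 0.19 and -0.70 ± 0.19 (adjusted p = 0.015) for *Tyro3*. The regulators of lysosomal genes *Mitf*, *Tfeb* and *Tfe3* did not pass either, at 0.45 ± 0.31, 0.83 ± 0.47 and 0.55 ± 0.20 on day 3. Without the pair of libraries 16 of the list were called on day 3 (6.04% of all genes) and 6 on day 7 (0.987%).

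Markers of myeloid and other cells moved with the 10 genes, and their part in the rises was not tested. Of all genes, 3.76% were called higher on day 3 and 2.07% on day 7. All 12 pan-myeloid genes were called higher on day 3 and 9 on day 7, with a summed level of 701, 1713, 3710, 2071 and 3312 CPM in the MCAO libraries A to E of day 3 and 1127, 1369, 5009, 1105 and 1481 CPM on day 7. Replicate A of day 3 was again the lowest and replicate C of day 7 the highest. Of 10 monocyte and macrophage genes, 5 were called higher on day 3 (*Ccr2*, *Plac8*, *Arg1*, *Thbs1* and *Fn1*). On day 7, 3 were called (*Plac8*, *Vcan* and *Fn1*), while *Ccr2* (adjusted p = 0.178) and *Arg1* (adjusted p = 0.269) did not pass in edgeR. The list summed to 64.6 to 647 CPM on day 3 and 72.7 to 577 CPM on day 7. In control and sham it summed to 36.0 to 58.7 CPM. Its largest means on day 7 were *Fn1* (28.3 CPM in sham, 130 CPM in MCAO) and *Vcan* (17.6 and 37.2 CPM). *Ly6c2*, *Chil3* and *Ms4a4c* were at 0 in all shams of day 3 and of day 7. Of 8 genes of border macrophages, 4 were called on day 3 and 1 on day 7 (38.4 to 315 and 31.2 to 319 CPM, against 14.7 to 42.8 CPM in control and sham).

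Transcripts of other cell types also differed between the libraries. Of all genes, 0.346% were called higher at 12 h, 3.76% on day 3 and 2.07% on day 7. Those called lower were 0.26% on day 3 and 1.43% on day 7. The 8 fibroblast genes summed to 63.0 to 215 CPM in control and sham, to 207, 223, 5626, 552 and 447 CPM on day 7 and to 165, 392, 670, 125 and 1369 CPM on day 3, with 3 called higher on day 3 and 6 on day 7. The 10 granulocyte genes summed to 1.37 to 19.1 CPM in control and sham, to 13.7, 37.9, 187, 179 and 1749 CPM at 12 h, and to 9.08, 22.1, 709, 16.1 and 98.7 CPM on day 3, with 2 called at 12 h (*S100a8* and *S100a9*), 3 on day 3 and 0 on day 7. The 8 neuronal genes summed to 10632 CPM in replicate C of day 7 and to 13798 to 16192 CPM in the other MCAO libraries of that day, all below the shams of day 7 (20921 to 34375 CPM). Most of that sum was *Nrgn*, with day 7 means of 18969 CPM in sham and 7939 CPM in MCAO. The rest of the list had log2 fold changes from -0.87 (*Rbfox3*) to 0.61 (*Gad2*) on day 7. On day 3 the MCAO libraries (15850 to 20492 CPM) overlapped the shams (17451 to 25287 CPM). The 14 genes of resting microglia summed to 2108 to 3004 CPM in MCAO of day 3 and 1596 to 3084 CPM on day 7. In the shams they summed to 1711 to 1957 CPM on day 3, below all MCAO libraries, and to 1955 to 2314 CPM on day 7, where 3 of the 5 MCAO libraries (1708, 1792 and 1596 CPM) lay below every sham and replicate C above. The sham sum of day 7 was mostly *Mef2c*, with means of 1667 CPM in sham and 885 CPM in MCAO. Of the lists of endothelial, astrocyte, oligodendrocyte and neuronal genes (8 each), 2, 1, 0 and 0 were called higher on day 3 and 0, 2, 1 and 0 on day 7, and of 6 dendritic and 5 choroid plexus genes tested, 0 on either day in edgeR. The genes called lower were *Snap25* on day 3 (-0.67 ± 0.16), *Rbfox3* (-0.87 ± 0.16) and *Nrgn* (-1.26 ± 0.26) on day 7, all of the neuronal list, and *Zbtb46* of the dendritic list on day 7 (-1.12 ± 0.28). Without the pair of libraries 3 fibroblast genes, 0 granulocyte genes, 9 pan-myeloid genes and 1 monocyte gene were called on day 7, and 5, 5, 12 and 7 on day 3. Of all genes, 0.987% were then called higher on day 7 and 6.04% on day 3.

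**Figure D5:**
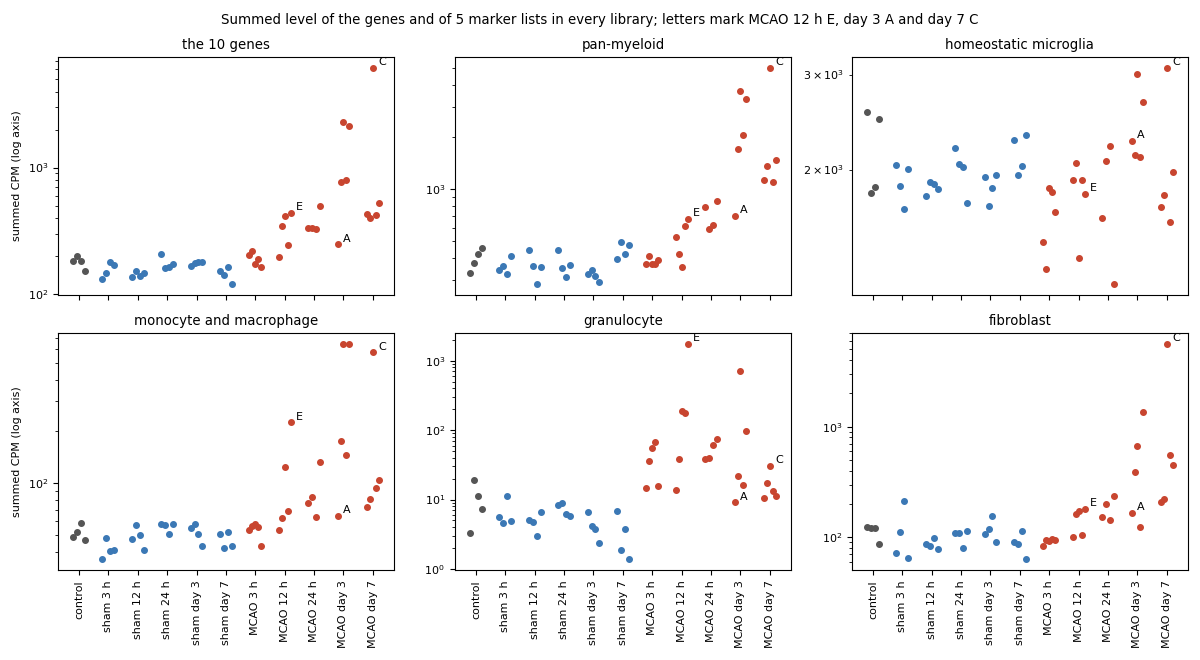
Summed level in CPM on a log axis (vertical) of the 10 genes and of 5 marker lists in every library of the 11 groups (control grey, sham blue, MCAO red), with letters at MCAO replicate E of 12 h, A of day 3 and C of day 7. Replicate C of day 7 is the highest library for the 10 genes (6131 CPM) and for the fibroblast list (5626 CPM), and replicate E of 12 h for the granulocyte list (1749 CPM).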

How the data were processed

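Libraries were of the QuantSeq 3′ FWD type, in which priming starts at the poly(A) tail and counts depend little on transcript length, and carried ERCC spike-ins. Per the study's methods, the authors trimmed the reads, used SortMeRNA to take out ribosomal and mitochondrial reads, mapped what remained to GRCm38 with STAR (2.5.2b in the submitters' processing notes) and obtained counts with htseq-count on Gencode vM8. Whether counting used the strand is not given in the sources used here. The deposited tables hold raw counts, 1 table per library, and the deposited log2 matrix of all libraries was not used. Reads without a feature (median 23.5%), ambiguous reads (0.4%), reads that were not unique (33.5%) and spike-ins stayed out of library sizes and tests. Symbols and positions came from Gencode vM21 on the same build.

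Groups were taken from the sample titles. For the comparisons, edgeR 4.0.16 (R 4.3.3) was run with TMM, glmQLFit and glmQLFTest in 1 fit of all 11 groups on the 19970 genes with more than 10 counts, and the script was tested on simulated data. Standard errors are the absolute log2 fold change divided by the root of the F statistic. Alternatives were DESeq2 1.42.0 with local fit, DESeq2's size factors, spike-in scaling, filterByExpr or no filter, only the groups compared, control as the reference, the replicate letter as a block, an adjusted p under 0.05 with no fold limit and each library left out. All 10 genes are named. Of the lists of other reactive genes and of partners, the 4 called genes with the largest change on day 3 and the same on day 7 are named, as are the 8 genes most like the 10. Other genes named from lists (*Apoe*, *Trem2*, *Tyrobp*, *Igf1*, *Csf1r*, *Mertk*, *Tyro3*, the lysosomal regulators and the cell markers) were picked after their values were seen. The 10 genes, the lists and the pair of libraries left out were chosen with earlier results of these data known. Proteins were not analysed here. Figures were drawn in Python 3.11.15 with matplotlib 3.10.9.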

Additional observations from a re-analysis of the deposited data

Results flagged for a closer look

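In 91 sets of 4 or 5 libraries (1 gene in 1 group, with more than 3 counts in the highest), 11 held a library whose gap to its nearest neighbor, on the log2(CPM + 1) scale, was larger than Dixon's 95% limit. Chance flags about 1 in 20 sets. Of the 11, 5 were the same library, MCAO replicate C of day 7, with *Spp1* at 2585, *Gpnmb* at 1549, *Cd63* at 898, *Lgals3* at 531 and *Cd68* at 254 CPM. MCAO replicate A of day 3 was flagged as low for *Lgals3* (1.60 CPM). The early flags were *Itgax* in MCAO replicate E of 12 h (4.17 CPM) and *Cst7* in MCAO replicate D of 24 h (2.44 CPM), both on few counts. Among the shams the flags were *Cd68* in replicate A of 3 h (low, 3.95 CPM), *Itgax* in replicate A of day 3 (1.81 CPM) and *Spp1* in replicate C of day 7 (3.27 CPM). What sets these libraries apart was not tested.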

How the results depend on the processing

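The counts of called genes moved by more than 1.5 times under few settings. At 12 h the count of 0 became 1 with an adjusted p under 0.05 and no fold limit. It became 1 with DESeq2 and 2 with no filter on low counts. Over all genes, the calls higher at 12 h went from 69 to 141 with DESeq2 and 148 with no filter. They were not counted at an adjusted p under 0.05. At 24 h the count of 0 became 1 when only the groups compared were fitted, where the calls higher over all genes went from 16 to 49. That setting cut the 9 calls of day 7 to 2 (413 to 143 over all genes), where the spread is estimated from 9 libraries that include replicate C. With each library left out, day 3 kept a count of 7 and day 7 ranged from 6 to 9, the lowest without MCAO replicate C, where *Cst7*, *Axl* and *Csf1* were lost. Over all genes, the calls higher then ranged from 430 to 1088 on day 3 and from 143, without replicate C, to 430 on day 7. For day 3 against 24 h, the count of 0 became 1 without both libraries that stand apart (0.362% of all genes called higher). This setting was added after the data were seen and itself raises the values of day 3. Directions reversed only for values that did not pass. With control as the reference at 3 h, *Spp1* was at -0.45, *Gpnmb* at -1.32 and *Itgax* at -0.01, and with spike-in scaling *Axl* at 24 h was at 0.10. With each library left out, *Axl* ranged from -0.21 to 0.18 at 3 h, -0.28 to 0.01 at 12 h and -0.14 to 0.12 at 24 h, and at 3 h *Gpnmb* ranged from -0.24 to 0.98, *Itgax* from -0.03 to 1.44 and *Csf1* from -0.15 to 0.30. Of 851 values of single genes under all settings, 809 kept direction and side of the threshold, 21 lost the call, 6 gained it and 15 reversed.

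The replicate letters gave no clear sign of pairing: of 20 same-letter pairs of MCAO and sham, 8 correlated above 0.1 in their deviations (-0.31 to 0.17, median 0.045). At 24 h replicates A, C and D stood at 0.17, 0.16 and 0.12, against means of -0.06, -0.04 and -0.04 with the other letters. Replicate B stood at -0.10 against 0.02. Such weak correlations cannot exclude a shared batch. With the letter as a replicate block the counts were 0, 0, 0, 7 and 9 at the 5 times, 0 for each difference between times and 0 for each sham. Over all genes, the calls higher were then 19, 46, 19, 601 and 357 at the 5 times. Spike-in scaling moved the median of all genes by -0.10 at 3 h and 12 h, 0.12 at 24 h, -0.23 on day 3 and 0.08 on day 7, and the share of calls that were higher from 81.8% to 64.3% at 3 h, from 93.5% to 77.9% on day 3 and from 59.2% to 82.4% on day 7. Over all genes, 750 calls higher on day 3 became 1199 and 413 on day 7 became 196 without both libraries. When only the groups compared were fitted they became 323 and 143. At this depth *Itgax*, *Cst7* and *Clec7a* rest on 0 to 5 counts per library outside MCAO, which limits their early values.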

Other observations

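Of 14 genes of resting microglia, 6 were called higher on day 3 (3.76% of all genes) and 6 on day 7 (2.07%). On day 7, 1 gene, *Mef2c*, was called lower (-0.91 ± 0.19, adjusted p = 0.00141), a transcription factor gene that neurons also express. *Fcrls*, a receptor-like gene of microglia, rose by 3.65 ± 0.45 on day 3. The purinergic receptor *P2ry12*, which steers microglial processes to injury, was called lower at 12 h (16.1 CPM in sham and 4.41 CPM in MCAO, -1.78 ± 0.39, adjusted p = 0.00927) and stood at 0.57 ± 0.35 on day 3 and 0.97 ± 0.36 on day 7 in the same edgeR fit. At 12 h the medians of the lists were -0.50 for the resting genes and 2.00 for the 10 reactive genes. The latter was 1.27 with the genes whose shams were all at 0 set to their lower bound. edgeR called 0 of the 10 at 12 h (0.346% of all genes were called higher).

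In the unoperated controls, replicate B held the highest level of the 4 for *Spp1* (10.7 CPM), *Gpnmb* (6.75 CPM) and *Lgals3* (7.87 CPM), where the other 3 libraries stood at 3.35 to 6.85, 0.571 to 1.69 and 1.12 to 2.26 CPM. Replicate E of MCAO at 12 h was the highest of its 5 for 6 of the 10 genes, *Spp1*, *Itgax*, *Cst7*, *Clec7a*, *Cd68* and *Lgals3*, and also for the granulocyte list.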
